A study of Mus musculus with 9 samples.

Results

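The cytosolic ribosomal protein genes were taken from a TPM table of primary mouse myoblasts by symbol: every row starting Rpl or Rps with a digit, plus Rplp0 to Rplp2 and Rpsa. Ribosomal protein S6 kinases and 245 symbols containing -ps (pseudogenes) were dropped. This left 91 genes of the 53715 gene IDs in the table, 53 of the large subunit and 38 of the small subunit. Of these, 77 were canonical ribosomal protein genes, 46 of the large and 31 of the small subunit. A further 13 were paralogs or retrocopies, and 1, Rps19bp1, encodes a protein that binds the ribosomal protein Rps19 and is not part of the ribosome. Among the 13, Rpl37rt, Rps4l, Rps12l1, Rps3a2 and Rps3a3 are annotated as pseudogenes, although their symbols do not contain -ps. The 91 genes lay on 19 chromosomes. Primary myoblasts, the dividing precursors of muscle fibres, came from the strain C57BL/10ScSn-Dmdmdx/J at passage 1. All libraries therefore share the mdx mutation of the dystrophin gene, and no library without it was analysed here. The cells were given glycine at 0.2 mM (3 libraries, the Lib1 series) or at 0.8 mM (6 libraries, the Lib2 series). Glycine level and library series cannot be told apart, and the labels do not say whether libraries came from separate cultures or animals. The p-values below therefore measure only the spread between these libraries.

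A ribosome joins a small subunit, which reads the mRNA, to a large subunit, which forms peptide bonds and holds the tunnel through which the new chain leaves. The proteins of each subunit are needed in near-equal numbers, and their mRNAs are among the most abundant of a dividing cell. Many of these mRNAs begin with a 5′ terminal oligopyrimidine tract, a run of C and T through which mTORC1, a kinase complex that senses amino acids and growth signals, controls their translation.

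The start regions of the genes at either end of the response are shown first, because such tracts are the best known sequence feature of the family. Each sequence holds 15 bases before and 15 bases after the start annotated by RefSeq on GRCm38.p6, 5′ to 3′ on the gene's strand. Capitals mark the longest run of C and T, or the first of equally long runs. The first 4 genes were higher at 0.8 mM glycine and the last 6 lower.
Rpl7a (chr2:26910792-26910821, plus strand): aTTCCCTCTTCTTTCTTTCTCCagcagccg
Rps2 (chr17:24720048-24720077, plus strand): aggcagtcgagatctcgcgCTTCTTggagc
Rps21 (chr2:180257364-180257393, plus strand): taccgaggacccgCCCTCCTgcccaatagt
Rpl41 (chr10:128549154-128549183, minus strand): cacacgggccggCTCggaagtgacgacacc
Rpl4 (chr9:64173372-64173401, plus strand): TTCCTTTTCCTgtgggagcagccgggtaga
Rps15a (chr7:118116133-118116162, minus strand): CTCTCTTTCTgccatcttccctcgccggtg
Rpl23 (chr11:97782425-97782454, minus strand): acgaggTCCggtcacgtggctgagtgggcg
Rps7 (chr12:28635939-28635968, minus strand): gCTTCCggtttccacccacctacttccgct
Rpl24 (chr16:55966260-55966289, plus strand): agaaagCTgttgctaggaaacagactgggc
Rpl5 (chr5:107900513-107900542, plus strand): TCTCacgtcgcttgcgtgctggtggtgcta

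A run of at least 8 C or T on the gene's strand was found in 25 of the 57 canonical genes with an entry in the table of starts, or 43.9%. Of all 27025 genes in that table, 3760 (13.9%) held such a run in the same window. The longest of the 10 runs shown, 21 bases, belonged to Rpl7a, a gene that rose. Rpl4 with 11 bases and Rps15a with 10 bases fell. The 25 genes with a run had a median log2 fold change of -0.16, and 18 of them fell and 1 rose. The 32 genes without one had a median of -0.16, and 16 fell and 3 rose. The medians of genes with and without a run were thus alike, and the difference in counts was not tested. A run in this window is a match of letters only, and the absence of one says only that these letters are not in this window.

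The 91 genes together held a smaller share of the TPM in every library at 0.8 mM glycine. TPM is a gene's read density per length, scaled so that each library has the same sum. A share thus states a gene's part of that sum, not of the RNA mass or of what a cell holds. In the 0.2 mM libraries the share was 22.9%, 24.1% and 23.6%. At 0.8 mM it ran from 20.4% to 21.5% with a median of 21.1%. The means were 23.5% ± 0.601 (SD, n = 3) and 21.0% ± 0.431 (SD, n = 6), a difference of -2.57 percentage points, and the groups did not overlap.

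The share was lower for both subunits. Large-subunit genes held 12.8%, 13.4% and 13.2% of the TPM at 0.2 mM and 11.3% to 11.9% at 0.8 mM, with a median of 11.7%. Small-subunit genes held 10.2%, 10.7% and 10.4% at 0.2 mM and 9.08% to 9.62% at 0.8 mM, with a median of 9.35%. Neither pair of ranges overlapped. The ratio of large-subunit to small-subunit TPM was 1.259, 1.258 and 1.267 at 0.2 mM and 1.234 to 1.257 at 0.8 mM, with a median of 1.247. These ranges were separated by a gap smaller than the SD of either group. With the median canonical gene of each subunit in place of the sum, the difference in the ratio changed sign, to 0.00256.

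**Figure D1:**
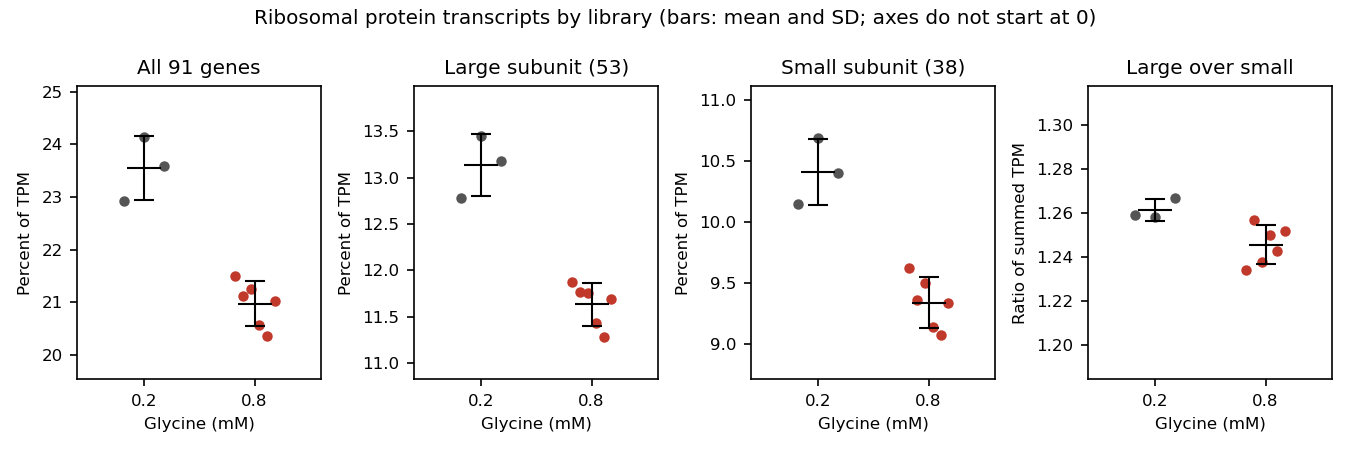
Share of TPM held by all 91 ribosomal protein genes and by each subunit, and the ratio of large-subunit to small-subunit TPM, for each library (points) with the mean and SD (bars). The 3 libraries at 0.2 mM lie between 22.9% and 24.1% for all genes, above the 6 libraries at 0.8 mM at 20.4% to 21.5%, and the vertical axes do not start at 0.

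Other RNA classes were followed beside these shares. The nuclear ribosomal RNA genes held 20.0% to 23.4% of the TPM at 0.2 mM and 17.5% to 21.2% at 0.8 mM, which overlap. With those genes left out of the total, the ribosomal protein genes held 29.9%, 30.9% and 29.5% at 0.2 mM and 25.2% to 27.3% at 0.8 mM. The separation of the groups was thus kept without ribosomal RNA. Mitochondrially encoded genes held 3.33% ± 0.333 (SD, n = 3) and 3.38% ± 0.159 (SD, n = 6).

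The labelled cell type was checked against marker lists. Of all 10049 genes tested, 16.7% rose and 9.81% fell at 0.8 mM, by the test described with the genes below. Of 8 myoblast markers, 7 could be tested and 6 rose, among them Myog, the transcription factor of the committed myoblast, and Des, which encodes the muscle intermediate filament desmin. The summed level of the list was 383 to 450 TPM at 0.2 mM and 859 to 1073 TPM at 0.8 mM. Of 8 fibroblast markers 6 rose, with sums of 2258 to 2635 and 2641 to 3209 TPM. Most of these sums was Dcn, with means of 1878 and 1689 TPM, which did not pass. Ly6a rose from a mean of 313 to 901 TPM. Of 12 leukocyte markers 3 rose, 2 fell and 7 did not pass, with sums of 2250 to 2458 and 2291 to 2763 TPM, which overlap. On the log2 scale Cd68 fell by 1.64 and Ctss by 0.80, while Cd14 rose by 1.24, Lyz2 by 0.77 and Tyrobp by 0.41. No listed marker was at 0 in every library, and Myf6 was under 1 TPM in each. Pax7, which marks satellite cells, had 0.550 to 0.899 TPM at the lower glycine level and 0.846 to 1.67 TPM at the higher. Its groups overlapped and it did not pass (0.35, limma adjusted p = 0.130). The part of these marker changes in the ribosomal protein results was not tested. In bulk RNA, fewer cells of a type and less RNA per cell cannot be told apart.

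Gene by gene, ribosomal protein mRNAs mostly fell. Of the 91 genes, 86 reached 1 TPM in at least 3 libraries and were tested with limma on log2(TPM + 1), adjusted over all 10049 genes tested (Benjamini-Hochberg, adjusted p under 0.05). At 0.8 mM, 53 of the 86 fell, or 61.6%, against 9.81% of all genes tested. Only 5 of the 86 rose (5.81%), against 16.7% of all genes, and the other 28 did not pass. The median log2 fold change was -0.20, with 72 of the 86 below 0, and the range was -0.63 to 0.31. Over all genes tested the median was 0.06, with 43.9% below 0. In 53 of the 86 genes every 0.8 mM value lay under every 0.2 mM value, against 10.6% of all genes. In 6 of the 86 every 0.8 mM value lay above, against 17.6% of all genes.

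In the large subunit 29 of 51 genes fell, 3 rose and 19 did not pass, with a median of -0.16. In the small subunit 24 of 35 fell, 2 rose and 9 did not pass, with a median of -0.23. Restricted to the canonical genes, 28 of 46 large-subunit and 21 of 31 small-subunit genes fell, with medians of -0.17 and -0.23, and 2 rose in each. The difference between the subunits was not tested. The changes were small: of the 53 genes that fell, 17 did so by at least 20%, and none of the 5 that rose did so by 25% or more. The counts of falls and of rises both depended on the scaling. Of all calls over the 10049 genes 36.9% were falls, against 47.4% after median-ratio scaling and 50.2% after quantile normalization. With those scalings 62 and 61 ribosomal protein genes fell and 2 and 3 rose, and the medians of the 86 were -0.29 and -0.28. Without a variance trend in limma 37 fell and 2 rose, and the calls of Rpl7a, Rps2 and Rps21 were among those lost.

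**Figure D2:**
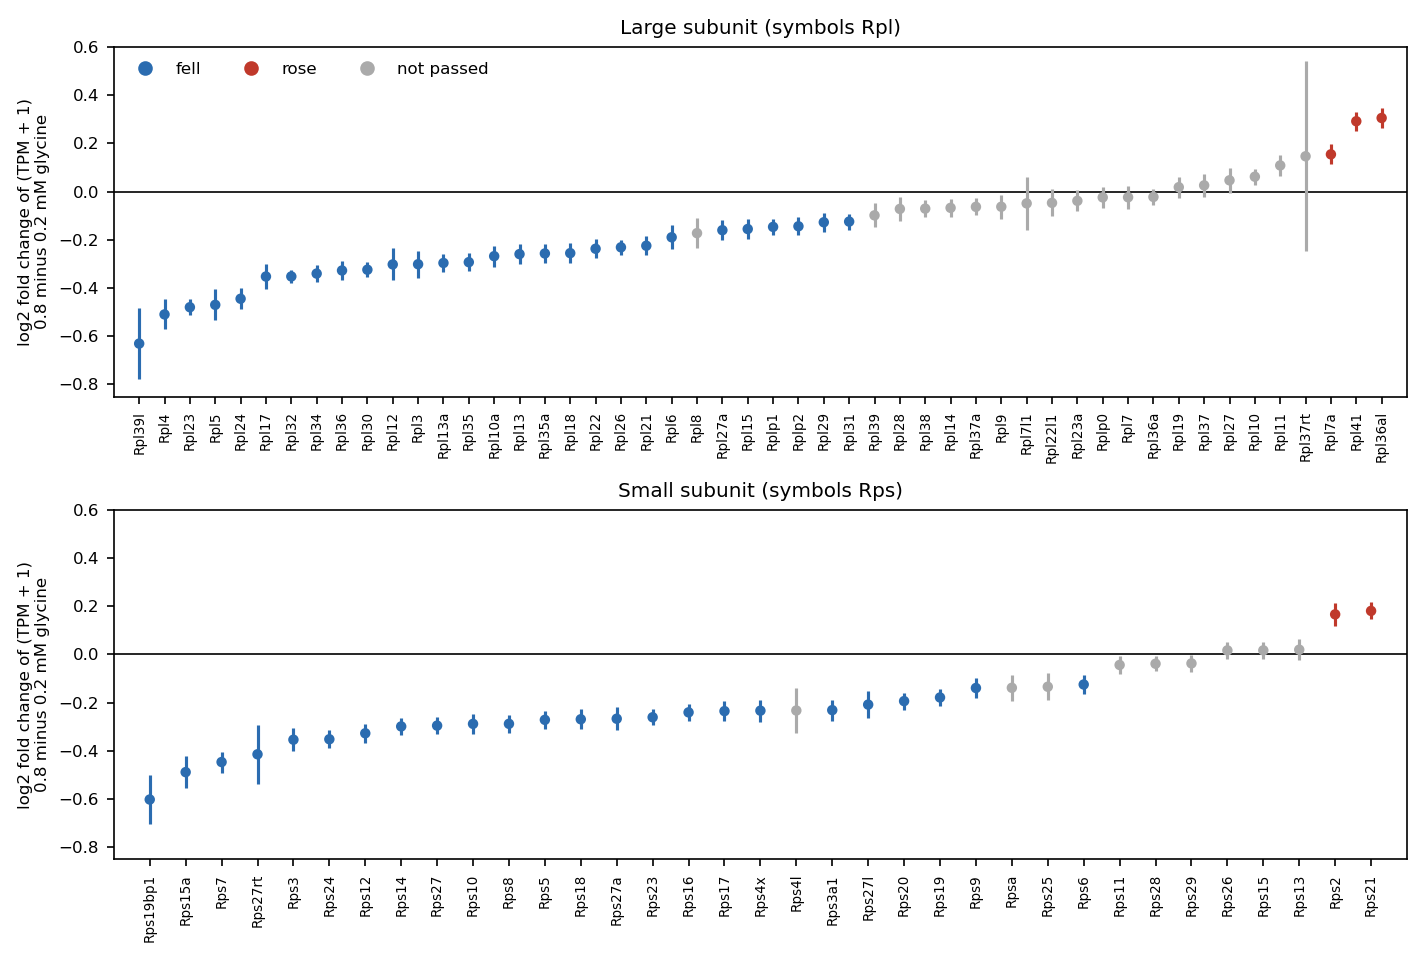
Log2 fold change of (TPM + 1) at 0.8 against 0.2 mM glycine with its standard error for 85 of the 86 ribosomal protein genes tested, ordered within each subunit. Blue genes fell, red genes rose and grey genes did not pass; the 5 red genes lie at the right-hand ends and the changes run from -0.63 to 0.31.

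The most abundant mRNAs of the family did not move together. Levels are in TPM, which is per length. Rps27, a small-subunit zinc-finger protein, had the highest mean at 12095 TPM, followed by Rps29 at 11887 and Rps28 at 11599. The order of Rps27, Rps29 and Rps28 differed between libraries. The 10 most abundant genes held 39.0% ± 0.154 (SD, n = 3) of the family's TPM at 0.2 mM and 39.7% ± 0.414 (SD, n = 6) at 0.8 mM. Rps27 had 13066, 14507 and 13838 TPM at 0.2 mM and 11034 to 11649 TPM at 0.8 mM (median 11183), and it fell by 0.30 on the log2 scale (SE 0.0346; adjusted p = 9.57e-05 by limma). Rps29 had 12220, 12103 and 11937 TPM at 0.2 mM and 11124 to 12510 TPM at 0.8 mM (median 11769). Its groups overlapped and it did not pass (-0.04, adjusted p = 0.502). Rps28 likewise did not pass (-0.04, adjusted p = 0.426). Rpl32, a large-subunit protein with 10168, 10792 and 10641 TPM at 0.2 mM, had 8069 to 8422 TPM at 0.8 mM (median 8256) and fell by 0.35. Rps24, a small-subunit gene mutated in some Diamond-Blackfan anaemia, also fell by 0.35 from a mean of 5863 to 4593 TPM, whereas Rpl37a did not pass (-0.06, adjusted p = 0.221).

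On the large subunit the P-stalk, the flexible arm that recruits elongation factors, comprises Rplp0 and the acidic proteins Rplp1 and Rplp2. Rplp1 had 10355, 10487 and 10564 TPM at 0.2 mM and 9033 to 9888 TPM at 0.8 mM (median 9537). It fell by 0.15 on the log2 scale (limma adjusted p = 0.00735), but the call was lost without a variance trend (adjusted p = 0.193) and the value under quantile normalization was 0.01. Rplp2 fell by 0.14 (adjusted p = 0.0165), with an adjusted p of 0.0726 when 0.2 mM replicate 3 was left out and 0.204 without a variance trend. Rplp0, the base of the stalk, did not pass (-0.02, adjusted p = 0.738), and its groups overlapped.

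The 5S particle joins Rpl5 and Rpl11 to the 5S ribosomal RNA, and free Rpl5 and Rpl11 are known to bind the p53 regulator Mdm2. Rpl5 had 183, 178 and 165 TPM at 0.2 mM and 119 to 141 TPM at 0.8 mM (median 124). It fell by 0.47 (SE 0.0642, adjusted p = 2.85e-04). Rpl11 had 1076, 1118 and 1131 TPM at 0.2 mM and 1136 to 1263 TPM at 0.8 mM (median 1188). All 6 of its 0.8 mM values lay above the 0.2 mM values by a narrow margin, and it did not pass (0.11, adjusted p = 0.102). The Rpl5 row holds few of the reads of its coding sequence, as given with the copies below.

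At the rim of the exit tunnel, where nascent chains meet their first partners, 4 of 7 genes fell and none rose (median -0.12). The 4 were Rpl17, Rpl26, Rpl31 and Rpl35, and Rpl17 fell most, by 0.35. Rpl19, Rpl23a and Rpl39 did not pass. The share that fell, 57.1%, was near the 60.9% of all canonical large-subunit genes (median -0.17). Over all genes tested, 9.81% fell.

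The canonical large-subunit genes that fell most were Rpl4, Rpl23, Rpl5 and Rpl24. Rpl4, which lines the tunnel with a long loop, had 783, 804 and 866 TPM at 0.2 mM and 536 to 633 TPM at 0.8 mM (median 573). It fell by 0.51 (SE 0.0620, adjusted p = 1.25e-04). Rpl23, at the face that meets the small subunit, had 3068, 3060 and 2966 TPM at 0.2 mM and 2109 to 2255 TPM at 0.8 mM (median 2156). It fell by 0.48 (SE 0.0339, adjusted p = 2.1e-06), and the lowest 0.2 mM value was far above the highest 0.8 mM value. Rpl24, part of a bridge between the subunits and the gene mutated in the Belly spot and tail mouse, had 1447, 1612 and 1472 TPM at 0.2 mM. At 0.8 mM it had 1086 to 1155 TPM (median 1102) and it fell by 0.44 (SE 0.0425). Exons of Rpl24 overlap the gene Gm28037 on the same strand, so their reads cannot be told apart.

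Large-subunit genes that rose were Rpl41, Rpl36al and Rpl7a. Rpl41 encodes the smallest ribosomal protein, a short helix at a bridge between the subunits. It had 4176, 4308 and 4389 TPM at 0.2 mM and 5032 to 5608 TPM at 0.8 mM (median 5232). The groups did not overlap and it rose by 0.29 (SE 0.0399, adjusted p = 2.85e-04). Rpl7a, which hosts 3 annotated small nucleolar RNA genes within its bounds, had 597, 626 and 619 TPM at 0.2 mM and 647 to 718 TPM at 0.8 mM (median 685). It rose by 0.15 (adjusted p = 0.0195), a call that was lost without 0.2 mM replicate 1 (adjusted p = 0.0856). It did not pass with median-ratio scaling (0.07, adjusted p = 0.345) and its value under quantile normalization was -0.09. Rpl36al is described with its paralog below.

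On the small subunit, 10 of the 14 genes of the head fell and none rose (median -0.24), and 11 of the other 17 canonical genes fell and 2 rose (median -0.23). Among head proteins, Rps3, which lines the mRNA entry channel, fell by 0.35. Rps15, Rps25, Rps28 and Rps29 did not pass. The canonical small-subunit genes with the largest falls, Rps15a and Rps7, lie outside the head. Rps7, another protein known to bind Mdm2, had 2110, 2339 and 2193 TPM at 0.2 mM and 1561 to 1705 TPM at 0.8 mM (median 1613). It fell by 0.45 (SE 0.0436, adjusted p = 2.45e-05). Rps15a, a core protein of the body, had 686, 714 and 648 TPM at 0.2 mM and 456 to 542 TPM at 0.8 mM (median 470). It fell by 0.49 (SE 0.0654, adjusted p = 2.48e-04). In both genes the groups were well apart. Rpsa, which sits near the mRNA exit and is also known as the laminin receptor, lay lower in all 6 libraries but did not pass (-0.14, adjusted p = 0.0826).

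The small-subunit genes that rose were Rps21, known for a role late in maturation of the subunit, and Rps2, at the mRNA entry. Rps21 had 5149, 5208 and 5172 TPM at 0.2 mM and 5591 to 6182 TPM at 0.8 mM (median 5802). It rose by 0.18 (SE 0.0354, adjusted p = 0.00307), and did not pass with median-ratio scaling (0.09, adjusted p = 0.148). Rps2 had 1946, 1965 and 1981 TPM at 0.2 mM and 2037 to 2385 TPM at 0.8 mM (median 2210). It rose by 0.17 (SE 0.0474, adjusted p = 0.0242). The call for Rps2 was lost when any 1 of the 3 libraries at 0.2 mM was left out, with adjusted p of 0.0551 to 0.0787, and with median-ratio scaling (0.08, adjusted p = 0.285). Exons of Rps2 overlap Snhg9 on the opposite strand, and whether the counting used strand is not given in the sources used here. Among all 86 genes, the smallest changes belonged to Rps26 and Rps15 (0.02 each), Rpl19 (0.02), Rps13 (0.02) and Rpl36a (-0.02), none of which passed.

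**Figure D3:**
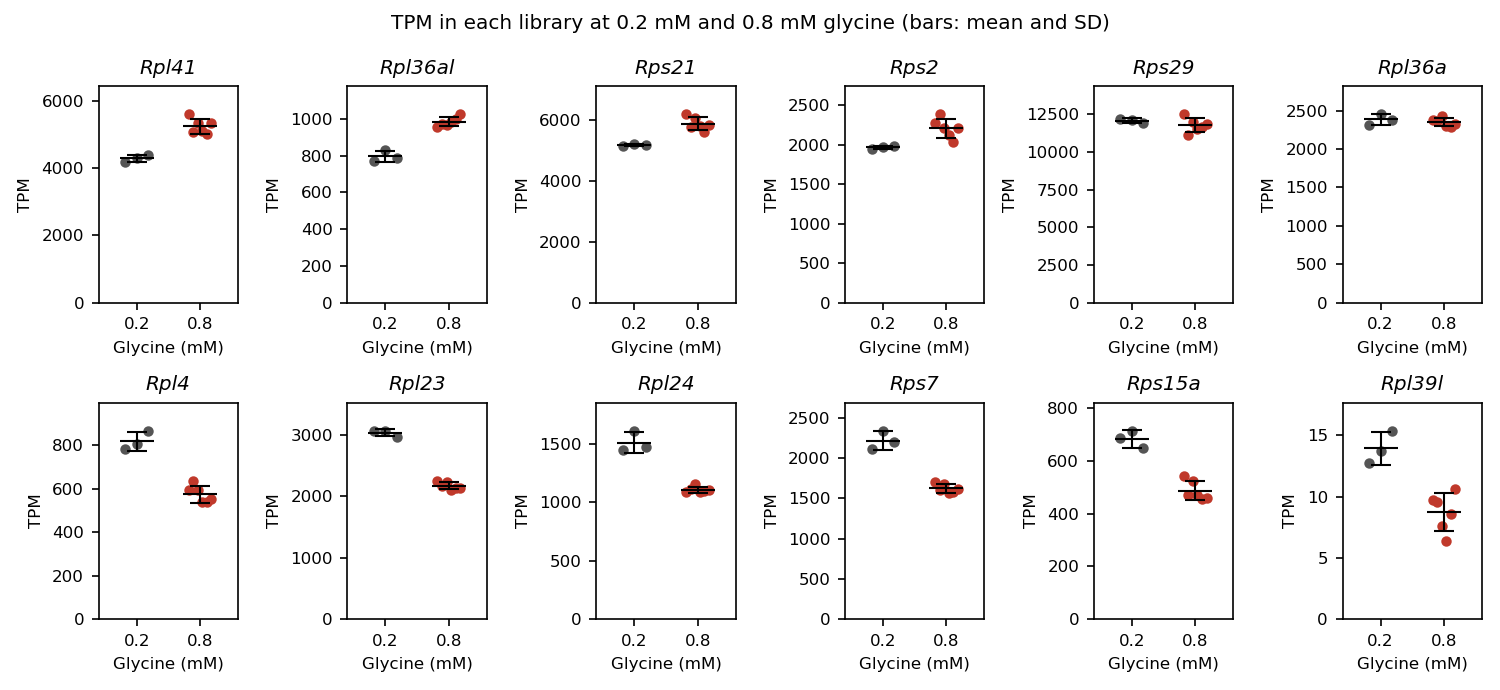
TPM of 12 ribosomal protein genes in each library (points) at 0.2 and 0.8 mM glycine, with mean and SD (bars) and axes from 0. Rpl41, Rpl36al, Rps21 and Rps2 lie higher at 0.8 mM, Rps29 and Rpl36a overlap, and the lower row (Rpl4, Rpl23, Rpl24, Rps7, Rps15a and Rpl39l) lies lower at 0.8 mM.

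Because most of the family fell, each gene was also set against the family's own total, by scaling all libraries to the same summed ribosomal protein TPM. This asks which genes moved within the family, and it moved the median of all genes tested from 0.06 to 0.18. The scale is set by the family's own sum, so counts on it only describe the spread within the family. The shares of all genes beside them are no test of the family. On this scale 27 of the 86 genes were lower, against 5.97% of all genes tested, and 23 were higher, a share (26.7%) near the 24.6% of all genes. The other 36 did not pass. These counts were 8 lower and 7 higher without a variance trend. By subunit, 14 large-subunit genes were lower and 15 higher, and 13 small-subunit genes were lower and 8 higher. The 5 largest rises were those of Rpl36al (0.47), Rpl41 (0.46), Rps21 (0.35), Rps2 (0.33) and Rpl7a (0.32), each with an adjusted p of 7.36e-05 or less. The largest falls were those of Rpl39l (-0.48), Rps19bp1 (-0.44), Rpl4 (-0.34), Rps15a (-0.32) and Rpl23 (-0.31). Rpl11 was higher on this scale (0.28, adjusted p = 2.08e-04) and Rpl5 lower (-0.30, adjusted p = 0.00504). Rplp0 was higher (0.14, adjusted p = 0.00612), and neither Rplp1 nor Rplp2 passed.

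Several ribosomal proteins have a second gene, and the share of a pair taken by the second gene does not depend on the library's scaling. Each share was compared by a two-sided exact permutation test over the 84 ways to place the 9 libraries in groups of 3 and 6. Its smallest possible p is 0.0238, and p-values were adjusted over the 5 pairs measured. Rpl36al, an intronless relative of the X-linked Rpl36a, had 773, 832 and 785 TPM at 0.2 mM and 958 to 1026 TPM at 0.8 mM (median 979). It rose by 0.31 (SE 0.0399, limma adjusted p = 2.08e-04), and its exons overlap Gm49383 on the same strand. It made up 25.02%, 25.33% and 24.77% of the pair at 0.2 mM and 28.4% to 30.6% at 0.8 mM (median 29.5%), higher in 6 of 6 libraries (exact p = 0.0238, adjusted 0.0595). Rpl36a itself, with 2317, 2453 and 2385 TPM at 0.2 mM and 2284 to 2434 TPM at 0.8 mM (median 2348), overlapped between the groups.

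Rpl39l, a relative of Rpl39 best known from testis, was a minor member with 12.7, 13.7 and 15.4 TPM at 0.2 mM and 6.35 to 10.6 TPM at 0.8 mM (median 9.07). It fell by 0.63 (SE 0.146, limma adjusted p = 0.00832), the largest fall of the 86 genes. Its share of the pair was 0.369%, 0.377% and 0.470% at 0.2 mM and 0.201% to 0.354% at 0.8 mM (median 0.277%; exact p = 0.0238, adjusted 0.0595). Rpl22l1, the paralog that Rpl22 is known to restrain, was about as abundant as Rpl22. It made up 49.5%, 53.1% and 51.2% of the pair at 0.2 mM and 52.6% to 56.9% at 0.8 mM (median 54.5%; exact p = 0.0476, adjusted 0.0794). Rpl22 fell by 0.24 (adjusted p = 9.91e-04) and Rpl22l1 did not pass (-0.05, adjusted p = 0.602).

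Rps27l, a p53-responsive relative of Rps27, fell by 0.21 (limma adjusted p = 0.0196), with overlapping groups, and the call was lost without 0.2 mM replicate 2 (adjusted p = 0.0975). Its share of the pair was 10.5% ± 0.117 (SD, n = 3) and 11.1% ± 0.541 (SD, n = 6; exact p = 0.0952, adjusted 0.119). Rps4l, annotated as a transcribed processed pseudogene, made up 3.57% and 3.56% of its pair with Rps4x (exact p = 0.976). None of the 5 pair shares passed after adjustment. Rpl36al and Rpl39l were at the smallest p the design allows, 0.0238, which adjusts to 0.0595 here. Their not passing depended on the number of libraries and pairs and on the p-values of the other pairs. It does not show that their shares were unchanged. Rpl3l, the relative of Rpl3 found in mature heart and skeletal muscle, and Rpl10l, that of Rpl10 in testis, were listed at 0 in every library. Of the partner genes, Rpl3 fell by 0.30 (limma adjusted p = 0.00229). Rps4x fell by 0.23 (adjusted p = 0.00307), a call lost without a variance trend (adjusted p = 0.0587), and Rpl10 did not pass (0.06, adjusted p = 0.212).

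The remaining paralogs and copies were scarce. Rpl7l1 (-0.05) and Rpl37rt (0.15) did not pass, at means of 12.4 and 3.68 TPM. Rps12l1 and Rps3a3 were listed at 0 in every library, and Rps3a2 reached at most 0.859 TPM. With Rpl3l and Rpl10l, these are the 5 genes that were not tested. Rps27rt, named after its values were seen, fell by 0.41 (adjusted p = 0.0283) with overlapping groups. That call was lost without 0.2 mM replicate 2 (adjusted p = 0.139) or replicate 3 (0.0932), and without 0.8 mM replicate 2, 3, 5 or 6 (0.0517 to 0.0521). Rps19bp1, the gene that matches by symbol only, had 43.2, 45.8 and 48.7 TPM at 0.2 mM and 26.3 to 34.5 TPM at 0.8 mM (median 29.2). It fell by 0.60 (SE 0.101, adjusted p = 0.00115).

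Ribosomal protein genes have many processed pseudogenes, and reads of near-identical copies cannot be assigned with certainty. A search of the GENCODE M21 transcripts for copies at 95% identity or more over at least 50% of the coding sequence found 541, of which 528 are annotated as pseudogenes. Only 32 copies had a mean of at least 1 TPM, yet 23 of the canonical genes had such a copy. This search, and the genes named from it, were chosen after values were seen. All copies together held 0.875% ± 0.0328 (SD, n = 3) of the TPM at 0.2 mM and 0.678% ± 0.0295 (SD, n = 6) at 0.8 mM, and the groups did not overlap.

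For Rpl5 and Rpl12 the copy outweighed the gene. AC110186.1, a transcribed processed pseudogene at chr7:114705217-114706235 (GRCm38), is 100% identical to the Rpl5 coding sequence over its full length. It was listed at 2567 ± 125 TPM (SD, n = 3) at 0.2 mM and 1909 ± 62.8 TPM (SD, n = 6) at 0.8 mM, against 175 and 126 TPM for Rpl5. Added to its copies, Rpl5 had 2779, 2854 and 2595 TPM at 0.2 mM and 1974 to 2111 TPM at 0.8 mM (median 2030), and it fell by 0.43 (limma adjusted p = 2.01e-05). RP23-460F17.1, at chr10:29698746-29699380, is 100% identical to the Rpl12 coding sequence and was listed at 1727 and 1277 TPM, against 73.1 and 59.1 TPM for Rpl12. Rpl12, which sits at the base of the P-stalk, fell by 0.30 alone and by 0.43 with its copies (adjusted p = 0.00611 and 1.0e-05). Alone, its call was lost with 0.8 mM replicates 4 to 6 only (adjusted p = 0.0596).

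Other genes shared their level with a copy more evenly. With copies added, Rpl17 fell by 0.37, Rps18 by 0.28 and Rps20 by 0.30 (limma adjusted p = 7.64e-05, 3.41e-04 and 0.0129). Their values alone were -0.35, -0.27 and -0.19, so the direction was the same with and without copies. Rps20 alone lost its call without a variance trend (adjusted p = 0.0808). Rpl27 did not pass alone (0.05, adjusted p = 0.574) or with copies (-0.03, adjusted p = 0.582). With every copy added to its gene, 53 of the ribosomal protein genes fell, as many as without.

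**Figure D4:**
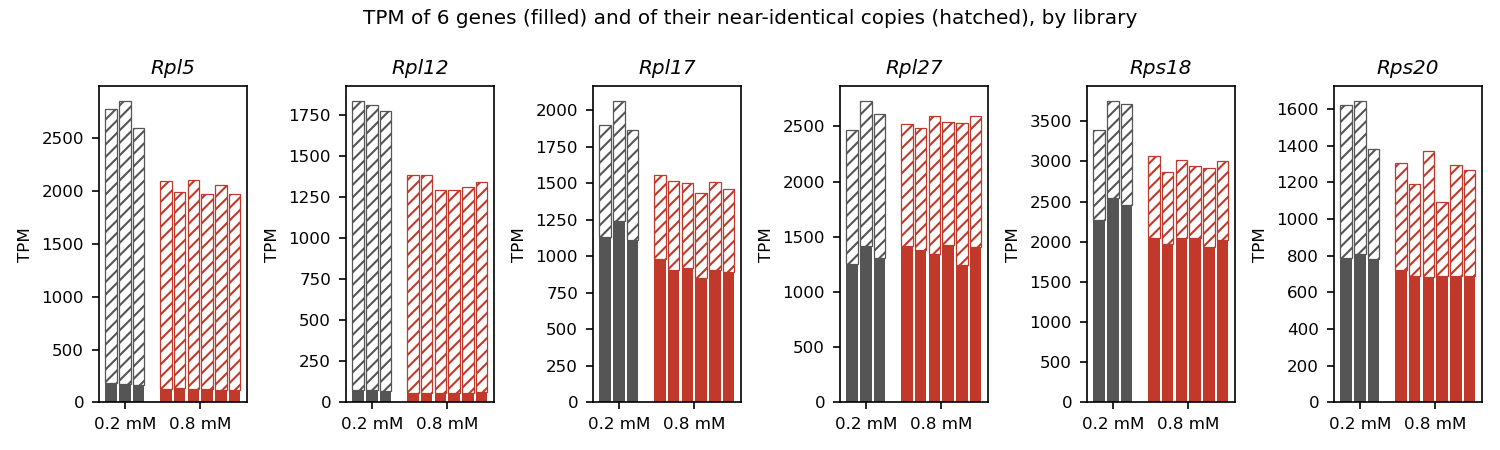
TPM of 6 ribosomal protein genes (filled bars) and their near-identical copies (hatched bars, stacked on top) in each library, grey at 0.2 mM and red at 0.8 mM glycine. For Rpl5 and Rpl12 nearly all TPM lie in the copies, and the stacked height is lower in every 0.8 mM library for all genes shown except Rpl27.

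Ribosomal proteins that the symbol rule does not catch include Fau, which encodes Rps30 fused to a ubiquitin-like protein, and Rack1, listed under its older symbol Gnb2l1. Fau had 923, 967 and 1025 TPM at 0.2 mM and 833 to 912 TPM at 0.8 mM (median 857) and fell by 0.17 (limma adjusted p = 0.0169). Gnb2l1, a scaffold on the head of the small subunit, fell by 0.19 (adjusted p = 0.0198).

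Of 20 other genes whose mRNAs are known for a terminal oligopyrimidine tract, chiefly translation factors, 10 fell, 2 rose and 8 did not pass, with a median of -0.21. Of all genes tested 9.81% fell and 16.7% rose, with a median of 0.06. Npm1, a nucleolar chaperone of ribosome assembly, had 320, 336 and 279 TPM at 0.2 mM and 178 to 209 TPM at 0.8 mM (median 192) and fell by 0.70 (adjusted p = 4.91e-05). Gas5, a small nucleolar RNA host, had 264, 304 and 226 TPM at 0.2 mM and 107 to 156 TPM at 0.8 mM (median 136) and fell by 1.01 (adjusted p = 2.04e-04). Nap1l1, a histone chaperone, fell by 0.46 (adjusted p = 4.71e-04). Vim, which encodes the intermediate filament vimentin, went the other way, with 431, 404 and 380 TPM at 0.2 mM and 624 to 711 TPM at 0.8 mM (median 681), and rose by 0.73 (adjusted p = 4.23e-06).

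Features of the genes that the symbol rule did not use were set against the changes, as descriptions across genes, which are not independent replicates. Across the 77 canonical genes, mean TPM was higher for shorter coding sequences (Pearson r = -0.499, Spearman rho = -0.503, both on log2 values). The log2 fold change followed coding length weakly (r = -0.236, rho = -0.119). Of the 30 canonical genes with a small nucleolar RNA gene within their bounds, 21 fell and 2 rose (median -0.24). Of the 47 without one, 28 fell and 2 rose (median -0.16). Exons of 24 of the 91 genes overlap those of another gene. Among the 21 canonical ones 14 fell, and 35 of the 56 canonical genes without such an overlap fell.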

How the data were processed

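RNA of mouse primary myoblasts was measured in 9 libraries, 3 at 0.2 mM and 6 at 0.8 mM glycine. Per the labels' protocols, Trizol was used for extraction and an Illumina TruSeq kit for the libraries, from 1 ug of total RNA each. The authors deposited 1 table of TPM per gene and library. Per the submitters' processing notes they used mm10, HISAT2 2.0.5, StringTie 1.3.3 and DESeq2, but no source used here gives their roles, order or annotation. TPM keeps no read counts, so the depth is unknown and precision rests on the spread between libraries.

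Every gene was tested with limma 3.58.1 (lmFit, eBayes with trend, two-sided, R 4.3.3) on log2(TPM + 1), over all 9 libraries with no covariate. Genes with at least 1 TPM in at least 3 libraries were kept, p-values were adjusted by Benjamini-Hochberg over all 10049, and adjusted p under 0.05 passed. Such fold changes understate those of genes with low TPM. The script was tested on simulated data. For the scale of the family's own total, each library's TPM were divided by its ribosomal protein sum. Summed shares and their ratio carry no p, although exact tests of them had been planned. Pair shares were compared by exact permutation tests (scipy 1.17.1). Positions came from GENCODE M21 on GRCm38, which matched 53620 of the IDs and all 91 genes, starts from RefSeq on GRCm38.p6, and copies from blastn 2.17.0.

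The members and lists were chosen with earlier results of these data known. The genes named were the 5 most abundant of each subunit, the 8 largest rises and 8 largest falls that passed, the 5 largest each way on the family's scale, the paralog pairs, the P-stalk and 5S genes, Rpsa, any match that is not a ribosomal protein and the 5 smallest changes. Some genes that this rule names are not reported here. Alternatives changed the pseudocount, filter, scaling, moderation, the genes in the total, the replicate block and the libraries used.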

Additional observations from a re-analysis of the deposited data

Results flagged for a closer look

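Dixon's test at the 95% level was applied to 55 sets of 6 values at 0.8 mM glycine (named genes, shares and pair shares), and 1 value stood apart in 2 of them. Chance flags about 1 in 20 such groups. Rpl5 had 141.0 TPM in 0.8 mM replicate 2, against 119.2 to 126.9 TPM in the other 5 libraries, and that value is still below every 0.2 mM value. Rps20 had 719.6 TPM in 0.8 mM replicate 1, against 684.8 to 691.4 TPM in the others, also below every 0.2 mM value. Both genes have a near-identical copy at over 1 TPM.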

How the results depend on the processing

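The number of ribosomal protein genes that fell stayed within 1.5 times of 53 under every alternative run except the minimum fold change, with 44 to 53 when each library was left out in turn. With a minimum fold change added (a fall of at least 20% or a rise of at least 25%), 17 fell and 0 rose. The number that rose, 5, was less stable. It was 3 with 0.8 mM replicates 4 to 6 only (an alternative added after seeing the data), 3 without ribosomal RNA genes in the total, 3 with quantile normalization, 3 when scaled to the TPM outside the family, 2 with median-ratio scaling and 2 without a variance trend. It ranged from 3 to 5 when each library was left out in turn, and the 3 came without 0.2 mM replicate 1, where Rpl7a and Rps2 were lost. Scaled to the family's own total, 27 fell and 23 rose, against 8 and 7 without a variance trend. The difference in the share of TPM was -2.57 points, and -3.96 without ribosomal RNA genes and -5.01 without the 10 most abundant other genes. For the large subunit these were -2.29 and -2.90, and for the small subunit -1.67 and -2.12. The smaller totals enlarge any share by construction. The difference in the subunit ratio, -0.0157, was 0.00256 with the median canonical gene of each subunit. Under quantile normalization Rpl7a had -0.0872 (adjusted p = 0.0927) and Rplp1 0.00544 (adjusted p = 0.953), and the cause was not tested. Over 44 named genes and 1100 alternative values, 49 lost a call with the sign kept, 2 lost a call with the sign changed, and 13 gained one. The sign changed in 36 values: 2 of genes that had passed (Rpl7a and Rplp1, above) and 34 of 12 genes that had not, and none of the 36 passed. Without a variance trend the calls of Rpl7a, Rplp1, Rplp2, Rps2, Rps4x, Rps20, Rps21, Rps27l and Rps27rt were lost (limma adjusted p 0.0545 to 0.204). With 0.8 mM replicates 4 to 6 only, those of Rpl7a, Rpl12, Rplp2, Rps2 and Rps27rt were lost (0.0596 to 0.138), and with no filter on low values those of Rps2, Rps27l and Rps27rt (0.0522 to 0.0758). Without ribosomal RNA genes, or scaled to the TPM outside the family, Rpl7a and Rps2 were lost (0.0613 to 0.117). The cause of the lost calls was not tested.

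Replicate numbers 1 to 3 occur in both groups, and the labels do not say that equal numbers pair libraries. Each gene's deviations from its group mean were correlated between libraries of the 2 groups. For same-numbered libraries these correlations were 0.0229, 0.03 and 0.0812, and for differently numbered ones -0.1041 to 0.0799. With the replicate block over the 6 libraries numbered 1 to 3, 37 genes fell and 4 rose, against 42 and 6 without it. On the family's own scale 12 fell and 12 rose with the block. The calls of Rplp1, Rplp2, Rps27l and Rps27rt were lost in these 6 libraries with and without the block (adjusted p 0.0525 to 0.198), and those of Rpl7a, Rpl12, Rpl39l and Rps20 with it (0.0597 to 0.0801). By these deviations, not every library correlated best with its own number. TPM give no depth, so limits set by read counts could not be stated.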

Other observations

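The 6 libraries at 0.8 mM glycine were also compared among themselves, with no test. In 30 of the 86 genes tested (34.9%) every value of replicates 1 to 3 lay above every value of replicates 4 to 6, and in 2 (2.33%) every value lay below. Over all 10049 genes tested the same held for 583 (5.80%) and 506 (5.04%). The share of TPM of the 91 genes was 21.5%, 21.1% and 21.3% in replicates 1 to 3 and 20.6%, 20.4% and 21.0% in replicates 4 to 6. The labels give no reason to divide these libraries, and this comparison was made after seeing the data.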
